A study of Mus musculus with 4 samples.

Results

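The transfer RNA synthetases measured here are 36 genes, 20 for enzymes of the cytosol and 16 for enzymes of mitochondria, among 37140 genes and unnamed transcripts on the array. Members were chosen by symbol alone, through the RefSeq accession of each non-control probe, and all 36 had a probe (45 probes in all). The methionine enzyme of the cytosol, Mars, is listed as Mars1 in the newer naming. RNA came from mouse bone marrow LMPP, lymphoid-primed multipotent progenitors that precede the lymphoid and myeloid lineages, of mice with GFP knocked in as a reporter of IRF8, a transcription factor of the dendritic cell and monocyte lineages. The IRF8-GFP positive group and the IRF8-GFP negative group had 2 arrays each, replicates 1 and 2, and both carried the reporter allele. The sort took cells with Sca-1, CD117, CD34 and CD135 at the surface and left out those with lineage markers, IL-7R or CD150, and the reporter gate then split them. The labels give neither the age of the mice nor whether replicates were separate animals, so a p-value here reflects array-to-array spread that may be technical.

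Each synthetase couples an amino acid to its transfer RNA, the step that supplies charged transfer RNA to the ribosome. Cytosolic and mitochondrial ribosomes draw on separate pools, and for most amino acids separate nuclear genes encode the enzyme of each compartment. In mammals Gars and Kars each give rise to both a cytosolic and a mitochondrial enzyme, so their probes report on both compartments. In mammalian cells short of amino acids, the kinase GCN2 is activated and the factor ATF4 switches on many cytosolic synthetase genes together with genes of amino acid synthesis and import.

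ATF4 binds, with a C/EBP partner, a site whose core is TGATGNAA, known as the C/EBP-ATF response element. Promoters of 27 members, from 250 bases before to 50 bases after the start, were found in the RefSeq sequences of build GRCm38.p6, 13 cytosolic and 14 mitochondrial. Those of Cars, Hars, Hars2, Lars, Nars, Pars2, Rars, Vars and Wars were not used here. The core, on either strand, stood in 5 of 13 cytosolic promoters (38.5%) and in 0 of 14 mitochondrial promoters, beside 1219 of 27025 genes of the whole table (4.51%). The 5 are shown because they hold the core, which is in capitals, read 5′ to 3′ along the gene's strand. TTNCATCA is the core read on the other strand. They lie at chr13:49681880-49682179 (plus strand, Iars), chr8:111033592-111033891 (plus, Aars), chr6:55037751-55038050 (plus, Gars), chr15:11399609-11399908 (minus, Tars) and chr4:129189653-129189952 (plus, Yars).
Iars: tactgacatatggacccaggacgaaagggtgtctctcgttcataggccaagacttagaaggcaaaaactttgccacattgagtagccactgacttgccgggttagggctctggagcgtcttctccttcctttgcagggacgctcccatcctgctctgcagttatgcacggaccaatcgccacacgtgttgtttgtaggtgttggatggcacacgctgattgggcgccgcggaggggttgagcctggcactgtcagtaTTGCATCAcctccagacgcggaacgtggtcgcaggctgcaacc
Aars: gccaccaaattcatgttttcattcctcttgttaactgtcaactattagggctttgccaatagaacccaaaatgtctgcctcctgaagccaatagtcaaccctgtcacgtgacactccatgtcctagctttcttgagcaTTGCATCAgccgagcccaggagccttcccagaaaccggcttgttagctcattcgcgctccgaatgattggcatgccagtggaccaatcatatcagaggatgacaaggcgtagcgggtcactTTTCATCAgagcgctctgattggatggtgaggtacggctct
Gars: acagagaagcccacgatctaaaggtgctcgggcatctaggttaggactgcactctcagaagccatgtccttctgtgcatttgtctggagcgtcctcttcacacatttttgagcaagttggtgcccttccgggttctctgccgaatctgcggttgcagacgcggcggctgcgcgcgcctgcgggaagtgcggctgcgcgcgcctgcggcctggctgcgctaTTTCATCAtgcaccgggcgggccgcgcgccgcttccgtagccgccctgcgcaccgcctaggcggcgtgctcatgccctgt
Tars: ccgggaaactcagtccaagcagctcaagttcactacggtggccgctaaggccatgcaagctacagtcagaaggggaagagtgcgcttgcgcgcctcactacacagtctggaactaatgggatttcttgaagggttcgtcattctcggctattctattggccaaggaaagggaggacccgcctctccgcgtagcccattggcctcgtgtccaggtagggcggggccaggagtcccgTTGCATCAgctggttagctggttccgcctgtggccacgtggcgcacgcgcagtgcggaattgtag
Yars: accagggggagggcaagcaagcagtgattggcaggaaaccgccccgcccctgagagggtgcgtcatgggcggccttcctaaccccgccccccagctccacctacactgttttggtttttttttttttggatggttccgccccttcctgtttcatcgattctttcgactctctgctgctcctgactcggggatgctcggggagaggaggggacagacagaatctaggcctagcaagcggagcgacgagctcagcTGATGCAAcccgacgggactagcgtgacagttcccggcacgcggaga
Aars held 2 matches and the other 4 genes 1 each. A second motif, the E-box CACGTG, added after seeing the data, does not overlap the core in these promoters. It stood in 4 of 13 cytosolic promoters (30.8%), those of Aars, Farsb, Iars and Tars, in 1 of 14 mitochondrial promoters (7.14%), that of Ears2, and in 8.09% of all genes of the table. A match is a description of these letters and shows no binding.

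Irf8 followed the sort, at log2 signals of 5.13 and 5.22 on the positive arrays against 1.64 and 1.60 on the negative arrays, each relative to the array's 75th percentile. Kit, Flt3, Cd34, Ly6a and Ptprc, genes of the sorting gate and of blood cells, were well above background on all 4 arrays, and Slamf1, the CD150 gene, on 0. Their levels moved both ways. Ly6a, the Sca-1 gene, and Kit, the CD117 gene, were called lower in the positive group (-0.96 and -0.39, limma adjusted p = 0.00222 and 0.00769). Cd34 and Flt3 were called higher (0.26 and 0.25, limma adjusted p = 0.0249 and 0.0257), and Ptprc did not pass (-0.079). Il7r, whose protein was gated out, was also above background on all 4, at 0.86 and 0.83 on the positive arrays against -1.57 and -1.54 on the negative arrays (difference 2.40, SE 0.06, limma adjusted p = 0.000835). Of the genes that mark other cells, Cd3g, Ms4a1, Ltf, Ncr1 and Cdh5 were above background on 0 of 4 arrays, while Cd3e and Cd5 were above it on all 4. The linear signal, in units of the 75th percentile and summed over the tested genes, was 2.28 to 2.96 on the positive arrays and 1.25 to 1.94 on the negative arrays for T cell genes (2 of 3 tested). For monocyte and macrophage genes (2 of 3) it was 15.1 to 16.9 on the positive arrays and 20.8 to 24.9 on the negative arrays. Nearly all of that came from the brightest Itgam probe (-0.52, called lower). The other Itgam probes gave 0.54 (adjusted p = 0.0197 in the limma fit of all probes) and 0.061, so no direction can be given for Itgam. Adgre1 was called higher (0.91, limma adjusted p = 0.00345). For granulocyte genes (2 of 4 listed) it was 0.274 to 0.373 on the positive arrays and 0.657 to 0.703 on the negative arrays. B cell genes (2 of 3) summed to 0.150 to 0.151 on the positive arrays and 0.111 to 0.140 on the negative arrays, and NK (1 of 2) and stromal or endothelial genes (2 of 3) to at most 0.203 and 0.263. The part of other cells in the results below was not tested. Between 29631 and 30266 spots were well above background on the positive arrays and between 33506 and 33681 on the negative arrays. Of 22362 genes tested, 59.9% were called in limma at an adjusted p of 0.05, 38.5% higher and 21.4% lower, and the median log2 difference (positive minus negative) was 0.16. The balance of calls depends on the scaling: of the genes called, 64.3% were higher here, 52.6% with quantile normalization and 28.9% with spike-in scaling. Called genes were also unequally spread over brightness, since 67.1% of the brightest quartile of genes were called higher, with a median of 0.38, and 17.8% of the dimmest quartile, with a median of -0.018. Among tested genes with a symbol 44.1% were called higher.

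Cytosolic synthetases were higher in the positive group almost throughout. Of the 20, 19 rose, 0 fell and 1, Yars, did not pass, beside 38.5% of all tested genes called higher. Their log2 differences ran from 0.34 (Qars) to 0.83 (Mars), with a median of 0.62 that lay 0.45 above the median of all genes. The brightest quartile of tested genes holds 14 of the 20, and there 67.1% were called higher, with a median of 0.38. The groups did not overlap for any of the 20, with the positive arrays on top, as for 52.4% of all tested genes. A difference of 0.5 or more was seen for 15 of the 20, beside 19.6% of all tested genes. All 20 passed the filter on dim probes, each with both arrays of both groups above background, so none entered only through the group where it was higher. In bulk RNA of sorted cells, more cells with high expression and more RNA per cell cannot be told apart.

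**Figure D1:**
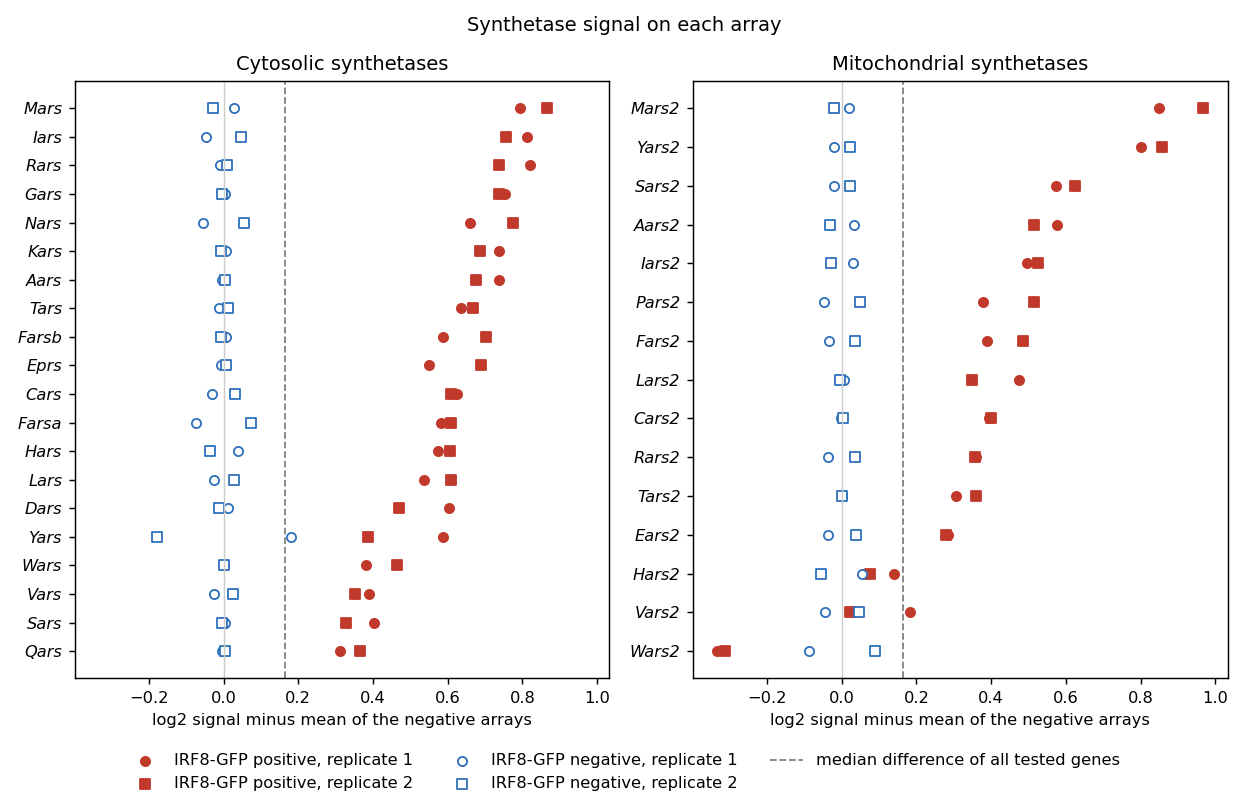
Log2 signal of each synthetase on each array, minus the mean of the 2 negative arrays, for 20 cytosolic genes (left) and the 15 mitochondrial genes tested (right), sorted by the difference. Filled symbols are positive arrays, open symbols negative arrays, and the dashed line is the median difference of all tested genes, 0.16; all 20 cytosolic genes have both filled symbols right of the open ones.

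Mars, the enzyme for methionine and so also for the initiator transfer RNA, had log2 signals of 2.79 and 2.86 on the positive arrays, against 2.02 and 1.96 on the negative arrays. The groups are wide apart beside their spread, and the log2 difference was 0.83 (SE 0.06, 1.78-fold, limma adjusted p = 0.0022). Iars, the isoleucine enzyme whose promoter is shown above, had 4.31 and 4.25 against 3.45 and 3.54, a difference of 0.78 (SE 0.07, adjusted p = 0.00244). Rars, for arginine, had 0.17 and 0.09 against -0.66 and -0.64, a difference of 0.78 (SE 0.06, adjusted p = 0.00227). These were the 3 largest cytosolic differences, and 4.76% (Mars) to 6.02% (Rars) of all tested genes had a larger one.

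Gars, for glycine, was next, at 6.60 and 6.59 on the positive arrays against 5.85 and 5.85 on the negative arrays, a difference of 0.75 (SE 0.05, adjusted p = 0.00212). Nars, for asparagine, had 3.11 and 3.22 in the positive group against 2.40 and 2.50 in the negative group, a difference of 0.72 (SE 0.08, adjusted p = 0.00366). Kars, for lysine, had 5.88 and 5.83 against 5.15 and 5.14, a difference of 0.71 (SE 0.06, adjusted p = 0.00228). Aars, for alanine, which has 2 matches to the core in the promoter above, had 3.65 and 3.59 against 2.91 and 2.92, a difference of 0.71 (SE 0.06, adjusted p = 0.00234). For each of these 4 genes the lower positive array stood well above the higher negative array.

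The next 8 cytosolic differences lay between 0.54 and 0.65 and all passed. Tars, for threonine, had 3.74 and 3.77 on the positive arrays against 3.09 and 3.12 on the negative arrays (difference 0.65, SE 0.06). The phenylalanine enzyme is a tetramer of paired alpha and beta chains, and their genes moved by like amounts, 0.60 for Farsa (SE 0.07) and 0.65 for Farsb (SE 0.07), with 2 Farsa probes at 0.60 and 0.65. Eprs, whose single protein charges both glutamate and proline, had a difference of 0.62 (SE 0.07), Cars, for cysteine, 0.62 (SE 0.06), Hars, for histidine, 0.59 (SE 0.06), Lars, for leucine, 0.57 (SE 0.06), and Dars, for aspartate, 0.54 (SE 0.07). Adjusted p-values of these 8 ran from 0.00249 to 0.00589 in limma. Of these 8 calls, that of Dars was lost with spike-in scaling (adjusted p = 0.106), and that of Farsa with quantile normalization, cyclic loess and the matrix values (adjusted p of 0.0548 to 0.0657).

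Smaller differences were measured for the remaining 5. Yars, for tyrosine, whose promoter also holds the core, was a dim probe with log2 signals of -1.79 and -1.99 on the positive arrays against -2.20 and -2.56 on the negative arrays. The difference was 0.49, with a wide spread (SE 0.15, limma adjusted p = 0.0547). Yars was called higher under 8 of 15 alternatives, among them quantile normalization, cyclic loess and the replicate block (adjusted p = 0.0175 with the block), over a range of adjusted p-values up to 0.459. Wars, for tryptophan, whose human counterpart is induced by interferon, had 4.82 and 4.91 in the positive group against 4.44 and 4.44 in the negative group. Its difference was 0.42 (SE 0.06), and its second probe gave 0.43. Vars, for valine, had a difference of 0.37 (SE 0.06), Sars, for serine, 0.37 (SE 0.06), and Qars, for glutamine, 0.34 (SE 0.06), with adjusted p-values of 0.00722 to 0.0104 for these 4 called genes. Each of these 4 calls was lost with quantile normalization, spike-in scaling, cyclic loess or the authors' matrix values, and without negative replicate 1 or 2. Qars had a difference of -0.056 with quantile normalization.

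In mammals 8 of the cytosolic synthetase genes, Dars, Eprs, Iars, Kars, Lars, Mars, Qars and Rars, encode parts of a single multisynthetase complex, held together by the scaffold proteins of Aimp1, Aimp2 and Eef1e1. All 8 rose, with a median log2 difference of 0.67, and of the 12 outside the complex 11 rose, with a median of 0.61. Beside these counts and those below, 38.5% of all tested genes and 67.1% of the brightest quartile were called higher. The range within the complex, 0.34 to 0.83, covered that outside it, 0.37 to 0.75, and the medians were not tested against each other. Each of the 3 scaffold genes rose. Eef1e1 had 2.08 and 2.05 on the positive arrays against 1.36 and 1.42 on the negative arrays (difference 0.67, SE 0.06, limma adjusted p = 0.00256). Aimp2 had a difference of 0.60 (SE 0.06, adjusted p = 0.00292) and Aimp1 one of 0.38 (SE 0.08, adjusted p = 0.0173). The calls of Aimp1 and Aimp2 were lost with quantile normalization and cyclic loess, and that of Aimp1 also when a single negative array was left out, with limma adjusted p-values as high as 0.869 for Aimp1 over the 15 alternatives. By fold of the catalytic domain, the cytosolic class I enzymes had a median of 0.57 (8 of 9 rose) and the class II enzymes 0.65 (10 of 10 rose), with Eprs, which has both folds, in neither.

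Mitochondrial synthetases were also mostly higher, by less and less evenly. Of 16, 15 passed the filter on dim probes, and of these 12 rose, 1 fell and 2 did not pass, beside 38.5% and 21.4% of all tested genes called higher and lower. Their differences ran from -0.32 (Wars2) to 0.91 (Mars2), with a median of 0.41. Of the 15, 5 were 0.5 or more, beside 19.6% of all tested genes. The positive arrays lay above the negative ones for 13 genes and below them for 1, beside 52.4% and 29.8% of all tested genes. Cars2 is among the 12 and Wars2 is the 1 that fell, and the probes of each differ in sign, as described below; with the dimmer probe of each member that has several, 11 were called higher and 1, Cars2, lower. Without negative replicate 1, 5 rose, and without negative replicate 2, 7, beside 21.3% and 21.5% of all tested genes called higher in those fits. Nars2, for asparagine, was above background on 0 of 2 positive arrays and 1 of 2 negative arrays and was not tested.

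Mars2, the mitochondrial methionine enzyme, had log2 signals of -0.58 and -0.46 on the positive arrays, against -1.41 and -1.45 on the negative arrays. This difference of 0.91 (SE 0.07, 1.88-fold, limma adjusted p = 0.00222) was the largest of all 35 synthetases tested. Yars2, for tyrosine, had 2.54 and 2.60 against 1.72 and 1.76, a difference of 0.83 (SE 0.06, adjusted p = 0.00209). Sars2, for serine, had 2.04 and 2.09 against 1.45 and 1.49, a difference of 0.60 (SE 0.06, adjusted p = 0.00308). These 3 mitochondrial calls were kept under all 15 alternatives, as were 13 of the 19 cytosolic calls: those of Aars, Cars, Eprs, Farsb, Gars, Hars, Iars, Kars, Lars, Mars, Nars, Rars and Tars.

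Aars2, for alanine, had 2.11 and 2.05 on the positive arrays against 1.56 and 1.50 on the negative arrays, a difference of 0.55 (SE 0.06, adjusted p = 0.0041). Iars2, for isoleucine, had a difference of 0.51 (SE 0.06), and its 2 probes gave 0.51 and 0.50. Both calls were lost with spike-in scaling (adjusted p = 0.0688 for Aars2 and 0.0632 for Iars2). Pars2, for proline, had a difference of 0.45, Fars2, for phenylalanine, 0.44, Lars2, for leucine, 0.41, Cars2, for cysteine, 0.40, Rars2, for arginine, 0.36, Tars2, for threonine, 0.33, and Ears2, for glutamate, 0.28, with standard errors of 0.05 to 0.08 and adjusted p-values of 0.00608 to 0.0191. Each of these 7 calls was lost under at least 4 of 15 alternatives, and Tars2 had a difference of -0.058 with quantile normalization and Ears2 one of -0.026 with spike-in scaling. The second, dimmer Pars2 probe gave 0.21 and was not called (adjusted p = 0.106 in the limma fit of all probes).

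The remaining 3 mitochondrial genes were not called higher by the probe that stands for each. Hars2, for histidine, had log2 signals of 2.86 and 2.80 on the positive arrays and 2.78 and 2.67 on the negative arrays, a difference of 0.11 (SE 0.07, adjusted p = 0.241). Vars2, for valine, had 1.003 and 0.84 against 0.77 and 0.87, with groups that overlapped and a difference of 0.10 (SE 0.08, adjusted p = 0.346). Its second, dimmer probe did not overlap, at -0.47 and -0.57 in the positive group against -0.80 and -0.72 in the negative group, a difference of 0.24 (adjusted p = 0.048 in the limma fit of all probes). Wars2, for tryptophan, had -0.58 and -0.56 in the positive group against -0.33 and -0.16 in the negative group, and was the single member that fell (difference -0.32, SE 0.08, adjusted p = 0.0311). That call depends on the probe. The second, dimmer Wars2 probe had -2.14 and -2.38 in the positive group against -2.40 and -2.55 in the negative group, a difference of 0.21 that did not pass in a fit of all probes (adjusted p = 0.176). Without positive replicate 1, positive replicate 2 or negative replicate 2 the fall of Wars2 did not pass either. Cars2 had the same kind of split, with 0.40 for its brighter probe and -0.27 for the dimmer one (adjusted p = 0.00764 and 0.0211 in the fit of all probes), so no direction can be given for Cars2 or Wars2. Of 8 members with more than 1 probe above background, these 2 were the ones whose probes differed in sign.

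Set side by side by amino acid, 16 pairs of cytosolic and mitochondrial counterparts had both genes measured, with Eprs and Fars2 each in 2 of them. The cytosolic gene had the larger difference in 13 pairs and the mitochondrial gene in 3. The count was 13 of 16 under each alternative except normexp, where the methionine pair turned and it was 14. The gap, taken as a log2 ratio within each array and so free of a factor common to an array, was 0.48 (SE 0.05) for histidine, where Hars and Hars2 are neighbouring genes on chromosome 18, and 0.42 (SE 0.05) for arginine. For threonine it was 0.32 (SE 0.02), for valine 0.27 (SE 0.07), and for tryptophan 0.75 (SE 0.09), the last resting on the Wars2 probe named above. It ran the other way for serine (-0.23, SE 0.07), tyrosine (-0.34, SE 0.24) and methionine (-0.078, SE 0.02). Standard errors of these gaps come from the 2 arrays a group alone, not from the limma fit, and are themselves imprecise. With 2 arrays a group, the smallest p of a two-sided exact permutation test is 0.333, and none was run on the gaps.

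**Figure D2:**
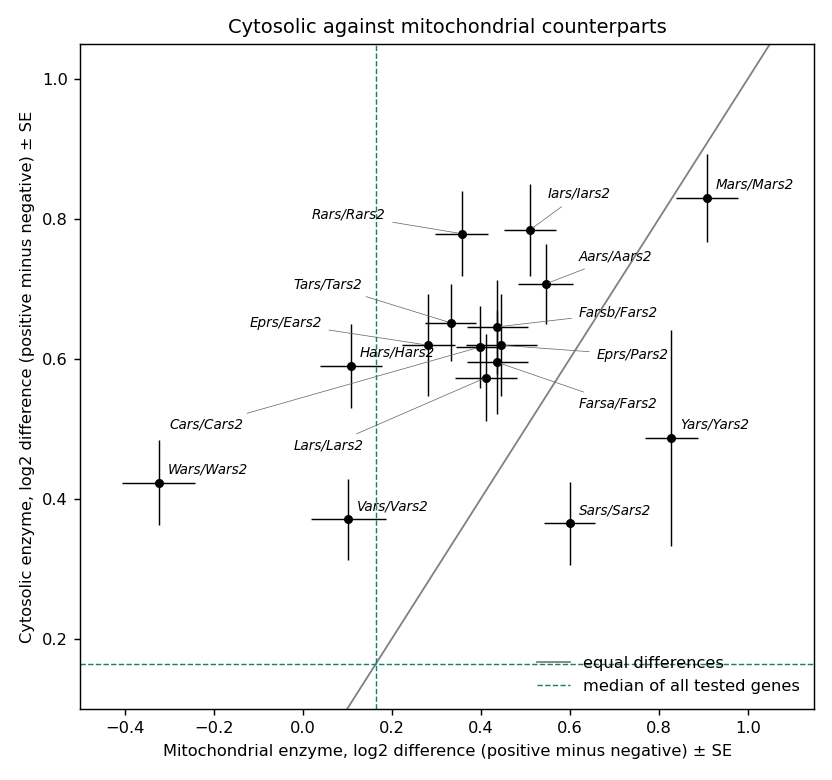
Log2 difference (positive minus negative) of the cytosolic gene against that of its mitochondrial counterpart for 16 pairs, with standard errors. Pairs above the grey diagonal (13 of 16) had the larger difference in the cytosolic gene, and the dashed lines mark the median of all tested genes, 0.16.

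The median difference of all genes climbed with brightness, while that of the synthetases did not follow it. In the brightest quartile of tested genes, where the median of all genes was 0.38, 14 cytosolic members had a median of 0.63 and 5 mitochondrial members one of 0.36. In the next quartile, where all genes had a median of 0.19, 4 cytosolic members had a median of 0.60 and 8 mitochondrial members one of 0.46. The second dimmest quartile held 2 of each, with medians of 0.63 (cytosolic) and 0.29 (mitochondrial) beside a median near 0 for all genes, and the dimmest held none. With the trend of the difference with brightness removed by cyclic loess, the medians were 0.33 (cytosolic), 0.17 (mitochondrial) and 0.015 (all genes), with 15 cytosolic and 6 mitochondrial members called higher beside 24.5% of all genes. Spike-in scaling gave 0.31, 0.10 and -0.14, with 14 and 3 called higher beside 14.8% of all genes. The cytosolic median stood above the mitochondrial one under all 15 alternatives, by 0.16 to 0.26, and above that of all genes by 0.28 to 0.50.

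**Figure D3:**
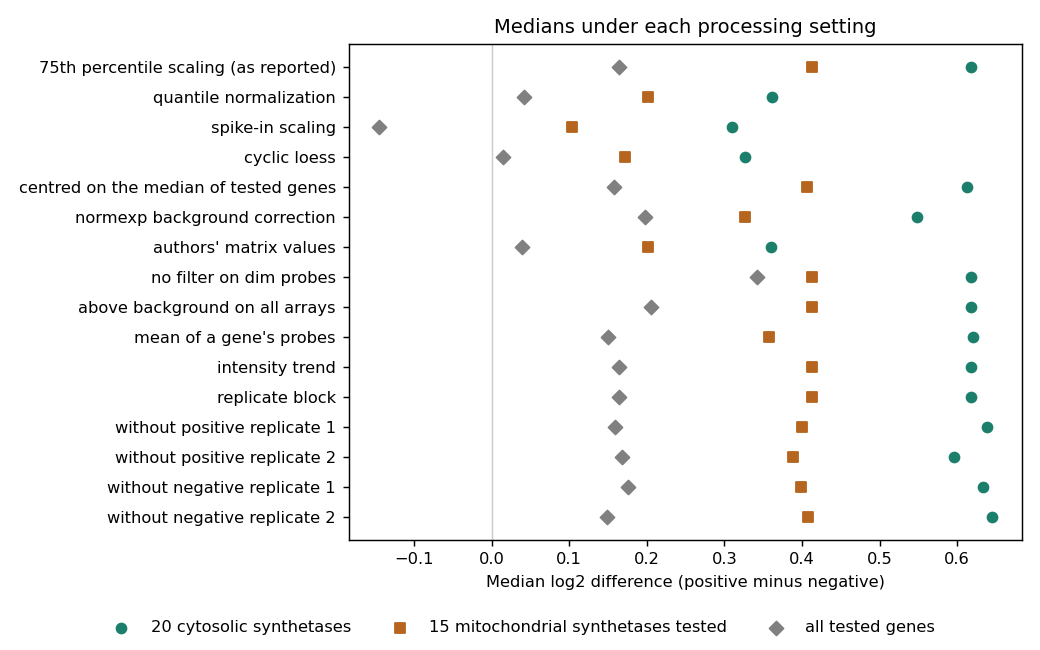
Median log2 difference (positive minus negative) of cytosolic synthetases (circles), mitochondrial synthetases (squares) and all tested genes (diamonds) as reported (top) and under 15 alternatives. The order of the 3 medians was the same in every row, while their size was smallest with quantile normalization, spike-in scaling, cyclic loess and the authors' matrix values.

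Genes that act downstream of charging were called higher in part, depending on the scaling. Of 6 cytosolic elongation factor genes 5 rose and 1, Eef2, did not pass, beside 38.5% of all tested genes and 67.1% of the brightest quartile, which holds all 6. With quantile normalization, cyclic loess or the matrix values 1 of the 6 was called higher, beside 27.1%, 24.5% and 27% of all genes. The medians of the 6 were 0.032, 0.0093 and 0.027, no higher than that of all genes. Eif5a, whose protein eases peptide bond formation at difficult sequences, had 6.09 and 5.99 on the positive arrays against 5.25 and 5.20 on the negative arrays (difference 0.81, SE 0.07, limma adjusted p = 0.0024). Eef1d, Eef1g and Eef1b2, parts of the exchange factor that reloads the carrier of charged transfer RNA, had differences of 0.55, 0.51 and 0.40. Of these 4, only Eif5a kept its call under all 15 alternatives, and Eef1b2 had a difference of -0.058 with cyclic loess. Among 4 genes that remove wrong or D-form amino acids from transfer RNA or resemble such enzymes, Aarsd1 rose (0.96, SE 0.06, limma adjusted p = 0.00187), Dtd2 was called higher through its brightest probe (0.36, SE 0.06, adjusted p = 0.00932) and 2 did not pass. Of the other Dtd2 probes, 1 gave 0.33 and 1 gave -0.39 (adjusted p = 0.0088 in the limma fit of all probes), so no direction can be given for Dtd2, whose call was also lost with spike-in scaling, with the mean of its probes, and without negative replicate 1 or 2.

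Of 14 tested genes for mitochondrial transfer RNA handling and translation 10 rose, 0 fell and 4 did not pass, with a median of 0.39. Of all tested genes 38.5% were called higher and 21.4% lower. Tufm, the mitochondrial elongation factor that carries charged transfer RNA, had 4.53 and 4.38 on the positive arrays against 3.55 and 3.59 on the negative arrays, a difference of 0.89 (SE 0.08, limma adjusted p = 0.00256). Gfm1, the translocation factor, had 0.87 (SE 0.06) and Tsfm, which recharges Tufm with GTP, 0.68 (SE 0.06). Mammalian mitochondria have no enzyme that charges glutamine directly and make that charged transfer RNA by amidation, and Gatb, a subunit of that amidase, rose by 0.58 (SE 0.06). The calls of Tufm, Gfm1, Tsfm and Gatb were kept under all 15 alternatives. Gfm2 is among the 10 through its brighter probe (0.39). Its dimmer probe gave -0.37 (adjusted p = 0.0136 in the limma fit of all probes), so no direction can be given for Gfm2. The count of the list was 4 higher and 1 lower with spike-in scaling, beside 14.8% of all tested genes called higher and 8102 of 22362 called lower. The median of the list was 0.40 without negative replicate 1 and 0.42 without negative replicate 2.

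The amino acid response genes moved both ways. Of 22 tested members, 14 rose, 4 fell and 4 did not pass, beside 38.5% and 21.4% of all genes, and the median was 0.39. With spike-in scaling 8 rose and 5 fell, beside 14.8% of all tested genes called higher and 8102 of 22362 called lower. The median of the list was then 0.078, beside -0.14 for all genes. It lay 0.22 above that of all genes under both scalings. Mthfd2, a mitochondrial enzyme of one-carbon metabolism, had 1.58 and 1.21 on the positive arrays against -0.24 and -0.26 on the negative arrays (difference 1.65, SE 0.14, limma adjusted p = 0.00246). Slc7a5, the transporter of large neutral amino acids, had 1.51 and 1.53 against 0.28 and 0.34 (difference 1.21, SE 0.06, adjusted p = 0.00144). Its second, dimmer probe gave 0.21 and was not called (adjusted p = 0.171 in the limma fit of all probes). Trib3, a pseudokinase induced by ATF4, fell, at -0.83 and -0.78 in the positive group against 1.61 and 1.82 in the negative group (difference -2.52, SE 0.09, adjusted p = 0.00118). Vldlr, a lipoprotein receptor, fell too, at 2.72 and 2.71 against 4.41 and 4.40 (difference -1.69, SE 0.05, adjusted p = 0.0011). The calls of these 4 genes, by the probe that stands for each, were kept under all 15 alternatives.

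Others of that list, chosen after their values were seen, show which members lay on each side. Phgdh and Psat1, enzymes of serine synthesis, had 0.83 and 0.79, the asparagine synthetase gene Asns had 0.56, and Atf4 itself had 0.47, all called higher. Ddit3, the stress factor CHOP, had -0.50 and Sesn2, an inhibitor of mTORC1, -0.31, both called lower, while Chac1 (0.27) and Ddit4 (-0.27) did not pass. Without negative replicate 1 the median of the list was 0.35, beside 0.18 for all tested genes. Of 6 tested genes of the GCN2 arm 3 rose, 1 fell and 2 did not pass, beside 38.5% and 21.4% of all tested genes called higher and lower. With spike-in scaling 1 was higher and 2 lower, beside 14.8% of all tested genes higher and 8102 of 22362 lower. With quantile normalization 2 were higher and 2 lower, beside 27.1% of all tested genes higher and 5466 of 22362 lower. The median of the 6 was then -0.12, beside 0.041 for all genes. Eif2s1, the subunit of eIF2 that the kinase phosphorylates, had a difference of 0.93 (SE 0.06, limma adjusted p = 0.00185), but its second probe gave 0.12 (adjusted p = 0.172 in the limma fit of all probes). Ppp1r15b, a subunit of the phosphatase that reverses this phosphorylation, had 0.47 (SE 0.07), and Gcn1, a ribosome-bound activator of GCN2, 0.41 (SE 0.05), which was -0.078 with quantile normalization. Impact, an inhibitor of GCN2 activation, fell (-0.66, SE 0.09, adjusted p = 0.00606; second probe -0.38, adjusted p = 0.351), and the kinase gene Eif2ak4 did not pass (0.069, adjusted p = 0.449).

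**Figure D4:**
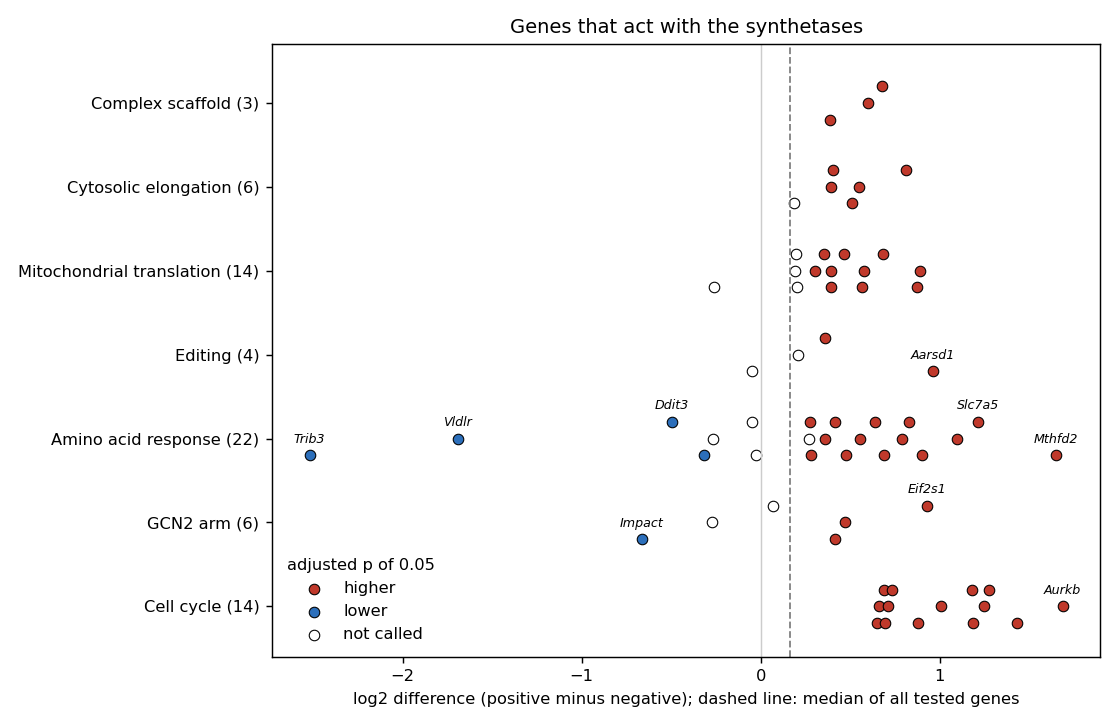
Log2 difference (positive minus negative) of genes in 7 lists of translation, amino acid response and cell cycle genes, with the number tested in brackets. Red points were called higher, blue points lower and open points neither at an adjusted p of 0.05; the amino acid response list has 14 red and 4 blue points, and all 14 cell cycle points are red.

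Cell cycle genes were also higher in the positive group. All 14 tested rose, with a median difference of 0.94, from 0.65 to 1.69. Of all tested genes 38.5% were called higher, and 67.1% of the brightest quartile, which holds most of the 14. Aurkb, a mitotic kinase, had -1.31 and -1.21 on the positive arrays against -2.80 and -3.09 on the negative arrays (difference 1.69, SE 0.12, limma adjusted p = 0.00209). Plk1, another mitotic kinase, had 1.43 (SE 0.07), Cdk1, the kinase that drives entry into mitosis, 1.27 (SE 0.08) and its cyclin gene Ccnb1 1.24 (SE 0.08). Of the 2 other Cdk1 probes, 1 gave 1.51 and the dimmest -0.093. The summed linear signal of the 14, in units of the 75th percentile, was 947 to 970 on the positive arrays and 549 to 558 on the negative arrays. Over 15 alternatives, 13 or 14 of them rose. The part of cell cycle in the synthetase differences was not tested.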

How the data were processed

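RNA from 4 sorted samples was labelled with Cy3 and hybridized to 1-colour Agilent arrays, per the labels' protocols. Agilent Feature Extraction 10.7.3.1 produced the deposited scanner files, per the file headers, giving each spot a background-subtracted, detrended intensity not normalized between arrays, with quality flags (other columns of 0 or 1). The deposited matrix holds linear intensity with the same sorted values in all 4 columns, as the authors' quantile normalization would leave it; its centring is unknown (column median 31.9). All arrays lie on 1 slide scanned on 1 day. No spot was saturated.

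Outlier spots were dropped, spots of a probe averaged, and log2 values taken minus the array's 75th percentile over 55669 probes. Probes were kept when well above background on both arrays of a group (at least 0.5 of spots). Accessions were named through RefSeq transcripts of GRCm38.p6, and 26756 probes had 1 symbol. That build was used for names, gene order and promoters, and not to place probes, which were designed on mm9. The brightest kept probe stood for a gene. The comparison, positive minus negative, two-sided, was fitted with limma 3.58.1 in R 4.3.3 (lmFit, eBayes, no block). It used all 4 arrays and 22362 genes, with Benjamini-Hochberg adjustment. On simulated data the fit recovered 0 of 50 log2 changes of 0.25, 0 of 50 of 0.5, 24 of 50 of 1 and 41 of 50 of 2, with 5 false calls. Far fewer genes were changed there than were called here, so this recovery cannot be carried over to the calls above. Members, lists, tests and named genes were chosen with earlier results of these data known. Named genes are all members, Irf8, the marker genes and up to 4 called genes of each list with the largest absolute difference; a few others are marked. Alternatives were quantile normalization, spike-in scaling (7 bright E1A controls), cyclic loess, centring on the median of tested genes, normexp (offset 50), the matrix values, no or a stricter filter, the mean of probes, an intensity trend, a replicate block, leaving out single arrays, and thresholds of 0.01 and 0.1. The dimmer probe of members with several was added after seeing the data. Fits across all genes were adjusted over all of them, and the number of arrays limits precision. Protein sequences were not used here, and 1 group of marker genes is not reported here.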

Additional observations from a re-analysis of the deposited data

How the results depend on the processing

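Over the 15 alternatives in scaling, background, filter, probe choice, variance and replicates, the number of genes called over the array was within 1.5 times the reported 13390 except without negative replicate 1 or 2, in a range over the arrays left out of 7612 to 12774. Cytosolic members called higher ranged from 14 to 20, and none was called lower under any of them. The cytosolic median of 0.62 moved to 0.36 with quantile normalization and with the authors' matrix values, 0.31 with spike-in scaling, 0.33 with cyclic loess and 0.55 with normexp, and lay between 0.60 and 0.64 with an array left out. Mitochondrial members called higher, 12 as reported, were 7 with quantile normalization and with the matrix values, 3 with spike-in scaling, 6 with cyclic loess, 7 at an adjusted p of 0.01, and 5 to 11 with an array left out. The 1 mitochondrial member called lower, Wars2, was lost (0 called lower) with quantile normalization, the matrix values, no filter, the mean of a gene's probes and an adjusted p of 0.01, and with an array left out the count was 0 to 1. The mitochondrial median of 0.41 moved to 0.20 with quantile normalization and with the matrix values, 0.10 with spike-in scaling, 0.17 with cyclic loess, 0.33 with normexp, 0.36 with the mean of probes and 0.37 with the dimmer probe of each member that has several, and was 0.39 to 0.41 with an array left out. Signs turned under 4 scalings and with the dimmer probe. With quantile normalization the differences were -0.056 for Qars, -0.14 for Hars2, -0.058 for Tars2 and -0.078 for Gcn1, and with the matrix values -0.059, -0.14, -0.062 and -0.083. Cyclic loess gave -0.051 for Qars, -0.17 for Hars2, -0.052 for Tars2 and -0.058 for Eef1b2, and spike-in scaling -0.026 for Ears2, -0.20 for Hars2 and -0.21 for Vars2. With the dimmer probe Cars2 was at -0.27 and Wars2 at 0.21. The cause of these changes was not tested. The labels number the experiments 1 and 2 in both groups without saying what a number shares, and the correlation of the deviations of equally numbered arrays was 0.0971. The replicate number as a block left 20 cytosolic and 12 mitochondrial members called higher and 1 lower, with 13946 calls over the array. The dim end of the scale is limited by background, which bears on Nars2 and Yars.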
